A study of Arabidopsis thaliana with 12 samples.

Results

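AIG2A, AIG2B and AIG2C are 3 neighbouring genes of Arabidopsis thaliana chromosome 3, and their transcripts were followed here across 4 genotypes. They were taken by their gene codes, AT3G28930, AT3G28940 and AT3G28950, which make up 3 of the 33331 genes in the count table. All 3 were among the 15082 genes with enough counts to be tested. AIG2 stands for avrRpt2-induced gene, after a bacterial effector that resistant plants recognise. Its founding member was found as a gene whose transcript accumulates when a resistant plant recognises bacteria that carry that effector. The encoded proteins are small and share a fold with gamma-glutamyl cyclotransferases, enzymes that release 5-oxoproline from gamma-glutamyl compounds such as glutathione. The series title states that AIG2A and AIG2B are induced by non-self signals and hold back chemical defence.

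The assay was 3′ RNA-seq, a method that reads each mRNA near its 3′ end, and the tissue was the whole shoot of plants 2 weeks old. The plants grew at 22 °C in constant light of 100 µmol per square metre and second and at 50% humidity. The groups were the wild type Col-0, an aig2abc mutant, a pad4 mutant and an aig2abc pad4 mutant, with 3 libraries each. PAD4 encodes a lipase-like protein that works with EDS1 in salicylic acid dependent immunity. The labels do not describe the lesions of aig2abc or pad4, and a 3′ read outside an altered stretch says nothing about that stretch. They also do not say whether libraries of a genotype came from plants grown separately, so the p-values measure the spread between libraries, which may be technical.

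Total counts ran from 584342 to 10697612 per library, with the lowest 3 in aig2abc. Photosynthetic genes that mark shoots were abundant in all 12 libraries, at 7640 to 20500 CPM (counts scaled to a common library size) summed over 5 genes. The 5 root markers summed to 13.5 to 38.1 CPM, with 2 or 3 of them at 0 in each group, and the 4 flower markers to 1.3 to 9.65 CPM. As sums, the shoot markers were lower and the flower markers higher in aig2abc than in any other group. The flower sum there was mostly PI, at a mean of 5.75 CPM, while AP3 was at 0. AG averaged 0.575 CPM in aig2abc and 0.891 in pad4. Of the shoot markers, RBCS1A and GLDP1 averaged 5510 and 459 CPM in aig2abc and 5360 and 431 CPM in aig2abc pad4. The part of these markers in the results below was not tested. Libraries of 1 group also differed along a shared direction, called the replicate axis here. Its direction is the first principal component of the deviations from group means in the 9 libraries outside aig2abc. It was computed without the AIG2 genes and held 52.5% of that variance. The scores of all 12 libraries were measured from the mean of those 9 libraries, not from group means. Differences between genotypes along this direction therefore enter the scores. The 3 aig2abc libraries lay beyond all others on the axis, at -97.9, -108 and -85. The third aig2abc pad4 library, at -63.6, stood apart from the other aig2abc pad4 libraries, at 33.3 and 23.1.

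In the RefSeq annotation of assembly TAIR10.1, all 3 genes lie on the minus strand and have 5 exons each. AIG2A spans chr3:10959641-10961461, AIG2B chr3:10968043-10969858 and AIG2C chr3:10976108-10977527, 17887 bases from end to end. The gaps between neighbours are 6581 and 6249 bases. A pseudogene, AT3G28945, lies between AIG2B and AIG2C, and the protein-coding AT3G28925 points towards AIG2A on the other strand and ends 30 bases from it. AT3G28925 had 0 counts in every library, and no annotated gene overlapped a member.

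**Figure D1:**
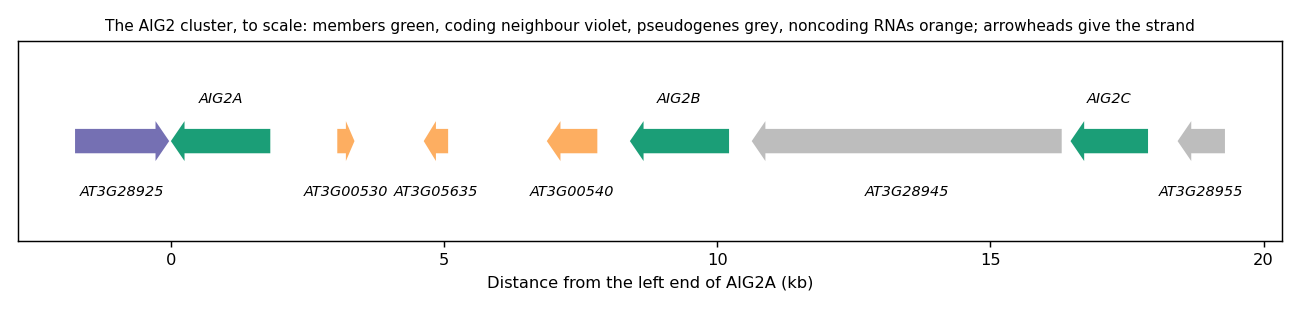
Map of the AIG2 cluster drawn to scale, with distance from the left end of AIG2A in kilobases on the horizontal axis. Arrowheads give the strand; all 3 members point left, and AT3G28925 points right and ends 30 bases from AIG2A.

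AIG2A and AIG2B are close copies and AIG2C is the more distant relative. The coding sequences are 513, 510 and 498 bases long in the order A, B, C, for proteins of 170, 169 and 165 residues. The AIG2A and AIG2B proteins were identical at 86.5% of aligned positions, against 54.7% for AIG2A with AIG2C and 54.4% for AIG2B with AIG2C. Of the other relatives compared, the closest to AIG2A was AT5G39730, at 52.9% of protein positions. The stretch of coding sequence around the longest match between AIG2A and AIG2C, 31 bases, shows the pattern. It covers coding bases 338 to 397 of AIG2A and AIG2B and 335 to 394 of AIG2C. Capitals mark bases that differ from AIG2A, 6 in AIG2B and 11 in AIG2C.
AIG2A: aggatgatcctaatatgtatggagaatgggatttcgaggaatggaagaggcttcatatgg
AIG2B: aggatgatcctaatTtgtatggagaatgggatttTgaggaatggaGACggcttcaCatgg
AIG2C: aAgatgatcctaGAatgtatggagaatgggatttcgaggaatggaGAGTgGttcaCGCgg

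Near-identical copies can share reads, which bears on how counts are split among them. The longest stretch common to the coding sequences of AIG2A and AIG2B starts at base 255 in both and is 44 bases long.
AIG2A and AIG2B: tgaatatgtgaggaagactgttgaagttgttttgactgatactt
A 3′ assay mostly reads further downstream, where the copies differ more. Over the last 500 bases of the transcripts, AIG2A and AIG2B were 62.9% identical, AIG2A and AIG2C 59.9% and AIG2B and AIG2C 56.9%. Of the 476 stretches of 25 bases in that part of AIG2A, 36 (7.56%) occurred more than once in the genome, counting both strands, 22 of them in another member. These shares were 3.15% for AIG2B and 1.47% for AIG2C. None of the 451 stretches of 50 bases in each gene occurred more than once. No source used here gives the read length or the treatment of reads that match several places, so the split between AIG2A and AIG2B carries that uncertainty.

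AIG2C was the gene of the cluster that nearly vanished in both groups carrying aig2abc. It stood at 26.4, 54.1 and 55.9 CPM in Col-0 (45.5 ± 16.5, SD, n = 3) and at 33.1, 40 and 43.9 CPM in pad4 (39 ± 5.48, SD, n = 3). In aig2abc it had 4, 0 and 4 counts, which is 1.48, 0 and 1.31 CPM. In aig2abc pad4 it had 5, 2 and 2 counts, or 0.481, 0.301 and 0.329 CPM. Every library carrying aig2abc was below every library without it. The library with 0 counts was the shallowest, where 3 counts would stand for 5.79 CPM, so its 0 limits the level only loosely.

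Pooled over libraries, the AIG2C level in aig2abc was 2.85% of that in Col-0, or 35.1 times lower (95% counting interval 17.8 to 81.5). In aig2abc pad4 it was 1.01% of that in pad4, a ratio of 99 (95% counting interval 52 to 217). These intervals, like the floor above, hold counting error alone. The fitted log2 changes were -5.15 ± 0.45 (SE) in aig2abc against Col-0 and -6.59 ± 0.43 in aig2abc pad4 against pad4 (quasi-likelihood test in edgeR, Benjamini-Hochberg adjusted p = 1.63e-06 and 2.49e-08). After thinning every library to the smallest total, which leaves few counts, the second value was -4.83 ± 0.68 (edgeR adjusted p = 0.000117) and still called for AIG2C. The remaining counts were lower in aig2abc pad4 than in aig2abc when pooled, by a ratio of 3.28 (95% counting interval 1.1 to 9.58). That difference did not pass across libraries, at a log2 change of -1.66 ± 0.69 (edgeR adjusted p = 0.0854), and the ranges overlapped. Nor did AIG2C pass in pad4 against Col-0, at -0.22 ± 0.28 (edgeR adjusted p = 0.93), a comparison in which only pad4 differs by label.

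AIG2A moved the other way, and its highest level was in the mutant labelled for all 3 genes together with pad4. It stood at 73.2, 64.3 and 62.6 CPM in Col-0 (66.7 ± 5.69, SD, n = 3) and at 109, 77.2 and 85 CPM in aig2abc (90.3 ± 16.4, SD, n = 3). It stood at 50.5, 50.2 and 46.8 CPM in pad4 (49.2 ± 2.04, SD, n = 3). The aig2abc pad4 libraries reached 209, 227 and 209 CPM (215 ± 10.4, SD, n = 3). Each genotype kept a range of its own, in the order pad4, Col-0, aig2abc and aig2abc pad4, and the replicates of Col-0, pad4 and aig2abc pad4 lay close together. The share of all genes whose ranges separate in this way was not computed, so the order alone is a description.

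The step from aig2abc to aig2abc pad4 passed the test, at a log2 change of 1.24 ± 0.22 (edgeR adjusted p = 0.00269). So did aig2abc pad4 against pad4, a 4.38-fold rise and log2 change of 2.13 ± 0.23 (edgeR adjusted p = 7.5e-06). The lower steps of the order did not pass, although their ranges did not overlap. In aig2abc against Col-0 the log2 change was 0.45 ± 0.22 (edgeR adjusted p = 0.12), and in pad4 against Col-0 it was -0.44 ± 0.22 (edgeR adjusted p = 0.837). The effect of the aig2abc mutations on AIG2A was larger without PAD4, with an interaction of 1.68 ± 0.31 on the log2 scale (edgeR adjusted p = 0.0115). These 4 pairwise comparisons share groups, so they are not independent of each other. In whole shoots, fewer cells of a type that holds a transcript and less of that transcript per cell cannot be told apart.

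AIG2B, the near copy of AIG2A, was low in aig2abc pad4 and varied between libraries of a group, least so in aig2abc. Its levels were 500, 844 and 963 CPM in Col-0 (769 ± 240, SD, n = 3) and 575, 838 and 714 CPM in aig2abc (709 ± 132, SD, n = 3). In pad4 they were 579, 1130 and 1260 CPM (989 ± 361, SD, n = 3). In aig2abc pad4 they were 84.5, 125 and 353 CPM (188 ± 145, SD, n = 3). The Col-0, aig2abc and pad4 ranges overlapped, and the aig2abc pad4 range lay below all of them.

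AIG2B fell 5.28-fold in aig2abc pad4 against pad4, a log2 change of -2.40 ± 0.45 (edgeR adjusted p = 0.0032). It also fell in aig2abc pad4 against aig2abc, by 1.92 ± 0.44 on the log2 scale (edgeR adjusted p = 0.00775). In aig2abc against Col-0 the value was -0.12 ± 0.43 (edgeR adjusted p = 0.848), and in pad4 against Col-0 it was 0.36 ± 0.43 (edgeR adjusted p = 0.925). The interaction was -2.28 ± 0.61 (edgeR adjusted p = 0.0272), opposite in sign to that of AIG2A. It no longer passed when any 1 of 8 of the 12 libraries was left out, namely Col-0 replicate 1, any aig2abc library, pad4 replicate 2 or 3, or aig2abc pad4 replicate 1 or 2. The values without one of those 8 ran to an adjusted p of 0.0775. Without aig2abc pad4 replicate 3, which held the highest AIG2B level of its group, the interaction was -3.11, the change against pad4 was -3.24 and that against aig2abc was -2.75.

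**Figure D2:**
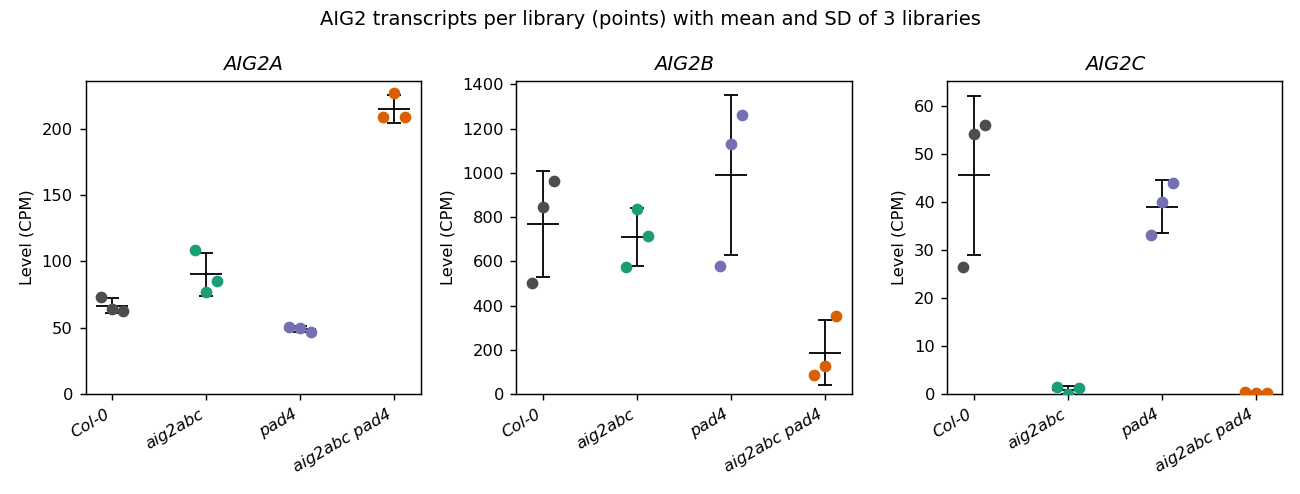
Levels of AIG2A, AIG2B and AIG2C in CPM for each library (points) of the 4 genotypes, with the mean and SD of 3 libraries (bars). AIG2A is highest in aig2abc pad4 at 209 to 227 CPM, AIG2B is lowest there at 84.5 to 353 CPM, and AIG2C is near 0 in both groups carrying aig2abc.

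The share of all genes called differed between the 5 comparisons and is given beside the members' calls. The aig2abc mutant is named for these 3 genes. Their calls where aig2abc differs are therefore not like those of genes taken without regard to the mutant. In aig2abc against Col-0, 1 of the 3 members was called, AIG2C as lower, where 37.5% of the genes tested were called, 18% as higher and 19.5% as lower. In aig2abc pad4 against pad4 all 3 were called, AIG2A higher and the others lower, where 4% of genes were called in either direction, 3.34% as higher and 0.663% as lower. In pad4 against Col-0, 0 of the 3 were called, where 0.69% of genes were, 0.00663% as higher and 0.683% as lower. In aig2abc pad4 against aig2abc 2 of 3 were called, AIG2A higher and AIG2B lower, where 24.3% of genes were, 12.8% as higher and 11.5% as lower. In the interaction 2 of 3 were called, again AIG2A as positive and AIG2B as negative, where 14.8% of genes were, 8.53% as positive and 6.23% as negative. The median log2 change of all genes tested was between -0.085 and 0.126 in the 5 comparisons.

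The spread of AIG2B followed the replicate axis. In Col-0, pad4 and aig2abc pad4 alike, the library with the highest axis score had the lowest AIG2B level of its group. It was replicate 1 in each of these groups. In Col-0 that library scored 59.8, with the others at -12.3 and -16.1, and in pad4 it scored 28.7, with the others at -16.1 and -36.8. Within aig2abc the order was different, and its libraries spanned little of the axis. Replicate 1 had the lowest AIG2B level there as well. Fitted within genotypes over all libraries, AIG2B fell by 1.65 on the log2 scale per 100 units of the score, against -0.984 for AIG2C and 0.14 for AIG2A. With the score in the model, the biological coefficient of variation of AIG2B went from 37.3% to 16.8%, that of AIG2C from 26.8% to 15.9% and that of AIG2A from 20.5% to 15.1%. The common value over all genes was 28.7% without the score. The direction of the axis was derived from the deviations within groups of the libraries outside aig2abc. Part of this drop therefore follows from how the score was built.

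**Figure D3:**
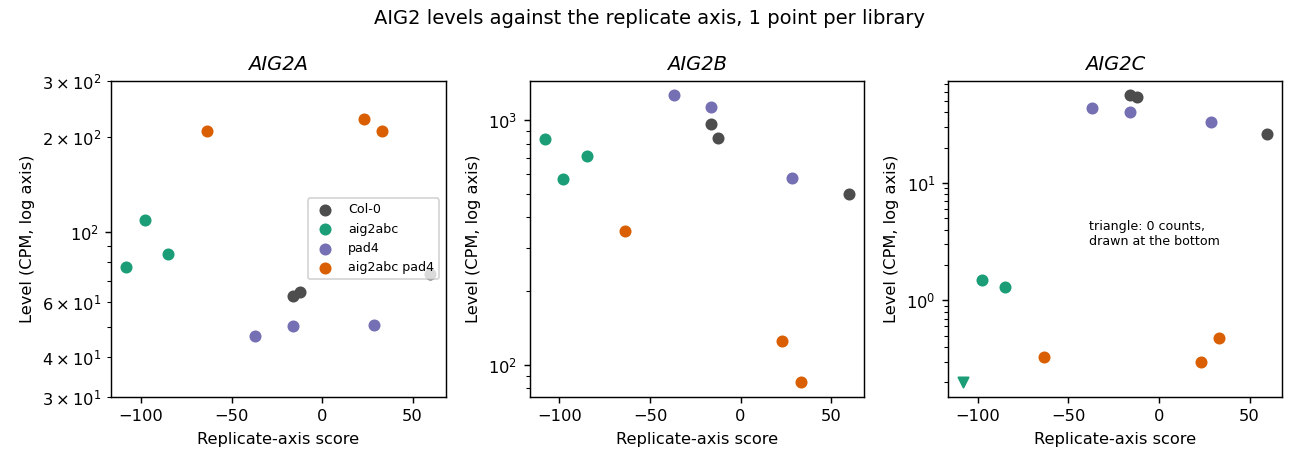
Level of each AIG2 gene (CPM, log axis) against the replicate-axis score, with 1 point per library coloured by genotype and a triangle for the library with 0 counts. AIG2B is lower in libraries with higher scores within Col-0, pad4 and aig2abc pad4, and the 3 aig2abc libraries lie at -85 or below.

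With the axis taken into account, the calls of AIG2A and AIG2C were the same and those of AIG2B changed. With the score as a covariate, AIG2A changed by 2.12 ± 0.18 in aig2abc pad4 against pad4 and by 1.10 ± 0.25 against aig2abc, with an interaction of 1.51 ± 0.33, all still called (edgeR adjusted p = 8.43e-11, 0.0165 and 0.0248). AIG2C changed by -6.09 ± 0.49 in aig2abc against Col-0 and by -6.50 ± 0.33 in aig2abc pad4 against pad4. The fall of AIG2B in aig2abc pad4 against pad4 was -2.49 ± 0.20 (edgeR adjusted p = 3.91e-11). In aig2abc against Col-0, however, AIG2B was now called lower, at -1.84 ± 0.30 (edgeR adjusted p = 0.000123). Its difference between aig2abc pad4 and aig2abc went to -0.62 ± 0.28 (edgeR adjusted p = 0.254) and its interaction to -0.65 ± 0.37 (edgeR adjusted p = 0.506). Because all aig2abc libraries lie beyond the range of the others, the score and the genotype are partly confounded there, and which of the 2 values for AIG2B in aig2abc holds cannot be told apart. The comparison of aig2abc pad4 with pad4 does not use those libraries' means, and AIG2B was lower in it under both models. Since the axis was derived from the spread of libraries in this same fit, the SE and adjusted p-values with the score may be too small. The scores also hold differences between genotypes, so part of a genotype's own change can be taken out with them.

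**Figure D4:**
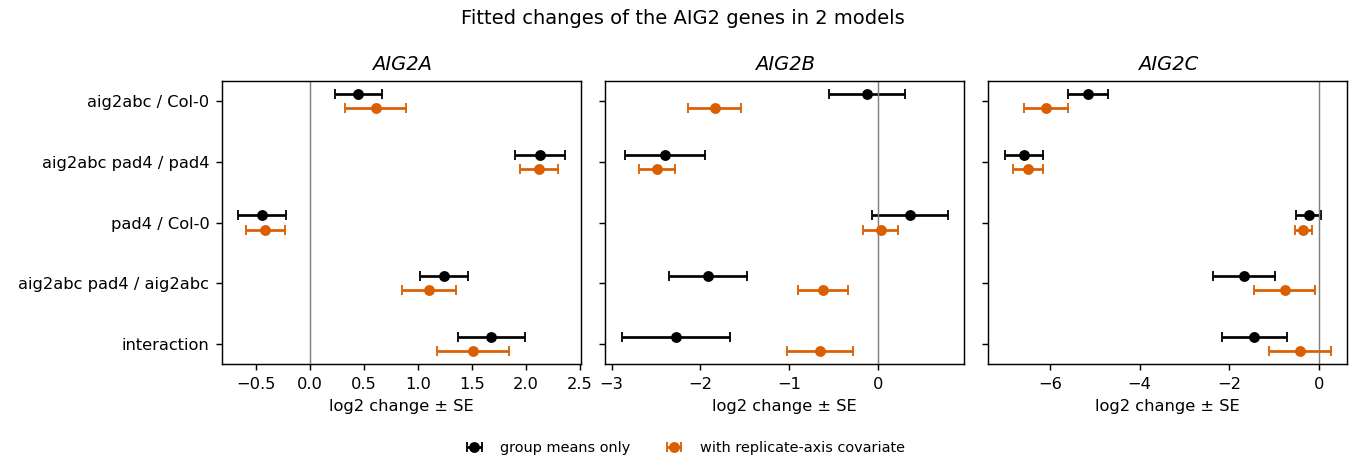
Fitted log2 changes with their SE for AIG2A, AIG2B and AIG2C in 5 comparisons, from the model of group means (black) and with the replicate-axis score added (orange). The largest shift is for AIG2B in aig2abc against Col-0, from -0.12 to -1.84, while AIG2A in aig2abc pad4 against pad4 is 2.13 and 2.12.

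The opposite movements of AIG2A and AIG2B showed most directly in the ratio of their counts within a library, which needs no scaling between libraries. The log2 ratio of AIG2A to AIG2B counts averaged -3.48 ± 0.62 in Col-0, -2.97 ± 0.53 in aig2abc and -4.25 ± 0.65 in pad4 (SD, n = 3 each). In aig2abc pad4 the libraries were at 1.31, 0.86 and -0.76, with a mean of 0.47 ± 1.09 (SD, n = 3). All 3 lay above the highest value elsewhere, -2.40. The ratio was 26.5-fold higher in aig2abc pad4 than in pad4 and 10.9-fold higher than in aig2abc, or 4.73 and 3.44 on the log2 scale. Without aig2abc pad4 replicate 3 these log2 differences were 5.34 and 4.06. The exact permutation test, two-sided, gave p = 0.1 for both, the smallest that 3 libraries against 3 allow, and 0.2 after adjustment over the 4 comparisons made. For aig2abc against Col-0 the difference was 0.51 on the log2 scale (exact p = 0.4) and for pad4 against Col-0 it was -0.78 (exact p = 0.3), both within overlapping ranges. The ratio is not free of the replicate axis, along which AIG2B changed by -1.65 per 100 units and AIG2A by 0.14. With the score in the model, aig2abc pad4 differed from aig2abc by -0.62 ± 0.28 for AIG2B and 1.10 ± 0.25 for AIG2A. The ratio itself was not fitted with the score. AIG2A made up 71.1, 64.5 and 37.2% of the cluster's counts in the aig2abc pad4 libraries and 3.46 to 15.9% in every other library. These shares depend on how each transcript's end is read, so they are compared between libraries and not read as levels of one gene against another.

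The level summed over the cluster was lowest in aig2abc pad4, although AIG2A was highest there. In every library outside aig2abc pad4, AIG2B made up 83.4 to 93.3% of the cluster's counts, so the sum mostly follows AIG2B. The sum was 294, 352 and 563 CPM in aig2abc pad4, against 663, 1220 and 1350 CPM in pad4. It averaged 881 ± 251 CPM in Col-0, 800 ± 115 CPM in aig2abc, 1080 ± 365 CPM in pad4 and 403 ± 141 CPM in aig2abc pad4 (SD, n = 3 each). The sum keeps reads that were assigned to the wrong copy. It was 2.65-fold lower in aig2abc pad4 than in pad4 and 2.05-fold lower than in aig2abc, without overlap (exact permutation test, two-sided, p = 0.1, adjusted over 4 comparisons 0.2). The sum was not fitted with the replicate-axis score, with which AIG2B was not called in aig2abc pad4 against aig2abc (edgeR adjusted p = 0.254).

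Sequence ahead of the genes was searched for short motifs of defence and stress promoters, since AIG2A and AIG2B moved apart in aig2abc pad4. The windows are the 250 bases before the start of the RefSeq transcript used for each gene, in TAIR10.1 and on the minus strand, at chr3:10961000-10961249 for AIG2A, chr3:10969859-10970108 for AIG2B and chr3:10977528-10977777 for AIG2C. RefSeq places the outer end of AIG2A further upstream, so that window lies inside the annotated gene. Capitals mark the motif letters found.
AIG2A: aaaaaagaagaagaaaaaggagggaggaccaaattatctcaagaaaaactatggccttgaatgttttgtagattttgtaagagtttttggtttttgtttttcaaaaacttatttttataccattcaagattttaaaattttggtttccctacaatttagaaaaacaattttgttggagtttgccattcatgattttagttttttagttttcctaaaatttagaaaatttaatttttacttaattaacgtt
AIG2B: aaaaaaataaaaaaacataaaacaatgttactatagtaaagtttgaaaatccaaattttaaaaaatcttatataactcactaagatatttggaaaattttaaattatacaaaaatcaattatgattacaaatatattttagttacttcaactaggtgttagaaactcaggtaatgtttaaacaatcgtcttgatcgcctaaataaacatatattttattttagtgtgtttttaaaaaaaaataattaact
AIG2C: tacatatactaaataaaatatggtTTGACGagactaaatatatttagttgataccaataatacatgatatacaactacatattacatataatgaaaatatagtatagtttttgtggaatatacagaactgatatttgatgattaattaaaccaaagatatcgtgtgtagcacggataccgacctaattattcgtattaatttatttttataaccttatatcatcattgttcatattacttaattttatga
Both strands were searched for TTGAC, the core of the W-box that WRKY factors bind, for TGACG, the core of the as-1 element, for the G-box CACGTG and for the GCC-box GCCGCC. AIG2C held TTGAC 226 bases before the start, overlapping TGACG at 225 bases, and none of the other motifs. These letters were not in the AIG2A and AIG2B windows. Of 31289 windows ahead of annotated genes, 44.4% held TTGAC, 18.4% TGACG, 6% CACGTG and 1.94% GCCGCC.

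Genes next to the cluster were checked because a lesion or a change over the region could reach them. Of the 5 protein-coding genes on each side, 3 had enough counts to be tested. HB34, a zinc-finger homeodomain factor, was at 16.2, 2.53 and 1.9 CPM in Col-0 and at 0, 3.86 and 0.657 CPM in aig2abc. AT3G28960 was at 3.66, 2.36 and 2.3 CPM in Col-0 and 0.741, 0 and 0.328 CPM in aig2abc. AAR3, named for resistance to an anti-auxin, was at 6.22, 3.88 and 4.89 CPM in Col-0 and at 1.85, 0 and 1.64 CPM in aig2abc. All 3 were called lower in aig2abc against Col-0, at log2 changes of -3.32 ± 1.12, -2.51 ± 0.66 and -1.68 ± 0.56 (edgeR adjusted p = 0.0279, 0.00782 and 0.0264), where 19.5% of genes were called lower. None of the 3 was called in aig2abc pad4 against pad4, in which AIG2C fell most and only 0.663% of all genes were called lower. Nor was any of the 3 called with the replicate-axis score in the model. In aig2abc these genes rest on 4, 3 and 10 counts over the group. The HB34 call was also lost without Col-0 replicate 1, which held its highest level, at -1.68 (edgeR adjusted p = 0.188), and without aig2abc replicate 1 or 3. The AAR3 call was lost without Col-0 replicate 1 or any aig2abc library, and that of AT3G28960 without aig2abc replicate 3. With limma-voom neither HB34 nor AAR3 was called, and HB34 was not called with no filter on low counts (adjusted p = 0.101) or with only the groups compared in the fit (adjusted p = 0.0813).

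Relatives of the cluster were looked at in the same comparisons. Of 9 genes of the AIG2-like and GGCT family outside the cluster, 8 were tested, and AT5G39720 was too low. In aig2abc against Col-0, 1 of the 8 was called higher and 1 lower, where 37.5% of all genes were called. In aig2abc pad4 against aig2abc and in the interaction 1 was called, where 24.3% and 14.8% of all genes were. None was called in aig2abc pad4 against pad4 or in pad4 against Col-0, where 4% and 0.69% were. GGCT2;2, which encodes a glutathione-degrading gamma-glutamyl cyclotransferase, was at 16.3, 29 and 27.1 CPM in Col-0 and at 159, 336 and 170 CPM in aig2abc. It was at 15, 64.1 and 60.7 CPM in pad4 and at 14.8, 16.1 and 65.8 CPM in aig2abc pad4. It rose in aig2abc against Col-0, by 3.18 ± 0.59 on the log2 scale (edgeR adjusted p = 0.000828), and its value in aig2abc pad4 against pad4 was -0.54 ± 0.54 (edgeR adjusted p = 0.776). The interaction of -3.71 ± 0.79 passed (edgeR adjusted p = 0.0145), with the same sign as that of AIG2B. As for AIG2B, the library with the highest axis score held the lowest GGCT2;2 level in Col-0, pad4 and aig2abc pad4. With the score in the model its rise in aig2abc was 0.89 ± 0.43 and its interaction -1.48 ± 0.52 (edgeR adjusted p = 0.216 and 0.234), neither called, and with no filter on low counts the interaction missed the threshold, at -3.55 ± 1.01 (edgeR adjusted p = 0.0547) for GGCT2;2.

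GGCT2;3 fell in aig2abc against Col-0, from 17.1 ± 4.13 to 9.33 ± 1.05 CPM (SD, n = 3 each; log2 change -0.88 ± 0.31, edgeR adjusted p = 0.032). With the replicate-axis score it was no longer called, nor in 4 of the 12 omissions of a library, Col-0 replicate 2 (adjusted p up to 0.118) and each aig2abc library, nor with limma-voom or with libraries thinned to the smallest total (adjusted p = 0.0742 and 0.329 for GGCT2;3). GGCT2;1 and the AIG2-like genes AT2G24390, AT3G02910, AT4G31310, AT5G39730 and AT5G46720 were called in none of the 5 comparisons in the model of group means over all 12 libraries. All of these but AT5G39730 passed in 1 comparison under some other setting. GGCT2;1 was called higher in aig2abc against Col-0 with limma-voom (adjusted p = 0.0425) and when Col-0 replicate 2 was left out (edgeR adjusted p = 0.0377), and AT5G46720 was called lower there with only the groups compared (edgeR adjusted p = 0.0486). AT2G24390, AT3G02910 and AT4G31310 were called lower in aig2abc pad4 against aig2abc without aig2abc pad4 replicate 3 (edgeR adjusted p = 0.0351, 0.0285 and 0.0255), and AT2G24390 also after thinning (edgeR adjusted p = 0.0468). The median log2 change of the 8 genes was 0.33 in aig2abc against Col-0 and -0.13 in aig2abc pad4 against pad4.

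AIG1, discovered together with AIG2 as an avrRpt2-induced gene and encoding an unrelated GTP-binding protein, gives a point of comparison. It was at 1.55, 2.7 and 4.99 CPM in Col-0 and at 14.5, 23.2 and 16.7 CPM in aig2abc. It was at 0, 0.115 and 0.117 CPM in pad4 and at 1.92, 1.96 and 0.658 CPM in aig2abc pad4. AIG1 thus rose in aig2abc against Col-0 by 2.47 ± 0.47 and fell in aig2abc pad4 against aig2abc by 3.46 ± 0.50 on the log2 scale (edgeR adjusted p = 0.000941 and 0.00117), whereas AIG2A rose in the latter comparison. Like AIG2A, AIG1 was called higher in aig2abc pad4 against pad4, and it was called lower in pad4 against Col-0, where AIG2A did not pass (edgeR adjusted p = 0.00396 and 0.000881 for AIG1). With the replicate-axis score the rise in aig2abc was 2.13 ± 0.70 and just missed the threshold (edgeR adjusted p = 0.052) for AIG1. With only 2 counts over the pad4 libraries, its fitted changes against that group are not given as folds. PAD4 itself fell in pad4 against Col-0 by 3.13 ± 0.31 and in aig2abc pad4 against aig2abc by 3.00 ± 0.31 on the log2 scale (edgeR adjusted p = 2.09e-05 and 0.000178).

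The genes whose patterns were most like each member were taken by the highest Pearson r of log2 CPM over the 12 libraries, as a description. The libraries share genotypes, depth and the replicate axis, all of which enter r. For AIG2A they were GSTF10, a glutathione transferase of the phi class, at r = 0.97, PDF1.2b, one of several close copies of a defensin gene, at 0.969, AT1G59950 at 0.968, AT4G03420 at 0.962 and AT4G16260 at 0.961. The GSTF10 mean was 671 CPM in Col-0, 756 in aig2abc, 468 in pad4 and 1720 in aig2abc pad4, the same order of genotypes as AIG2A. For AIG2B they were the aquaporin gene PIP1;5 at 0.934, AT2G45180 at 0.925, AT2G43550 at 0.913, AT1G64355 at 0.907 and ACBP6, for a protein that binds acyl-CoA, at 0.906. For AIG2C they were the cold-regulated COR314-TM2 at 0.967, the DOF factor gene CDF3 at 0.931, GLTP3 at 0.923, SP1L3 at 0.914 and NAKR3 at 0.911. COR314-TM2 averaged 46.8 CPM in Col-0 and 43.7 in pad4, and 23.3 in aig2abc and 24.4 in aig2abc pad4.

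Among themselves the members gave r = -0.874 for AIG2A with AIG2B, -0.79 for AIG2A with AIG2C and 0.595 for AIG2B with AIG2C over the 12 libraries. Over the 6 libraries of Col-0 and pad4, in which no AIG2 lesion is labelled, these were -0.58, -0.122 and 0.698. The nearest genes there were AT4G27450 for AIG2A (r = 0.995), BPC3 for AIG2B (0.998) and AT5G39990 for AIG2C (0.985). Each of these rests on 6 points. Ranked by Spearman's rho over the 12 libraries instead, 0, 1 and 0 of the 5 genes named for AIG2A, AIG2B and AIG2C were the same, so the choice of these genes depends on the measure.

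The pathways around the cluster were described from lists of their genes. On the list of the gamma-glutamyl and glutathione cycle, in which cyclotransferases act, 6 of 7 genes were tested. In aig2abc against Col-0, 2 rose and 1 fell, where 18% of all genes were called higher and 19.5% lower. OXP1, the 5-oxoprolinase that recycles the product of these enzymes, rose from 44 ± 12.5 to 134 ± 8.46 CPM (SD, n = 3 each; log2 change 1.60 ± 0.32), and the vacuolar gamma-glutamyl transpeptidase gene GGT4 by 1.49 ± 0.28. GGT1, which acts in the cell wall space, fell by 2.45 ± 0.70 (edgeR adjusted p = 0.00142, 0.00103 and 0.0123). In Col-0, pad4 and aig2abc pad4 the library with the highest axis score held the lowest OXP1 level, at 30.9, 43.2 and 47.6 CPM. It held the highest GGT1 level of each of these groups, at 37.7, 23.4 and 22.9 CPM. The changes of OXP1, GGT4 and GGT1 with the score in the model are not given here. In aig2abc pad4 against pad4, where 3.34% of all genes were called higher and 0.663% lower, 2 rose and 0 fell, namely GSH2, the glutathione synthetase, by 1.56 ± 0.27 and GGT4 by 1.19 ± 0.28 (edgeR adjusted p = 0.0014 and 0.0172). In pad4 against Col-0, 0 of the 6 were called, where 0.69% of all genes were. The medians of the 6 were 0.72, 0.49 and -0.04 in these 3 comparisons.

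Of 15 tested genes of indolic chemical defence, 11 rose and 2 fell in aig2abc against Col-0, where 18% of all genes were called higher and 19.5% lower. In aig2abc pad4 against pad4, 13 rose and 0 fell, where 3.34% of all genes were called higher and 0.663% lower. Their median log2 changes were 2.33 and 3.94, beside 0.45 and 2.13 for AIG2A. CYP71A13, an enzyme of camalexin synthesis with a close copy that can share its reads, rose by 5.26 ± 0.37 and 6.73 ± 0.42 on the log2 scale (edgeR adjusted p = 1.56e-07 and 1.48e-08). Of 15 genes of the EDS1 and PAD4 node and of salicylic acid output, 8 rose and 1 fell in aig2abc against Col-0, and 4 rose and 0 fell in aig2abc pad4 against pad4, beside the same shares of all genes. In pad4 against Col-0, in which none of the AIG2 genes was called, 4 of these 15 fell and 0 rose, where 0.683% of all genes were called lower and 0.00663% higher. Among them was PAD4 itself, the gene this mutant is named for, so its fall is no independent part of that count. PR1 also fell, by 4.99 ± 0.39 (edgeR adjusted p = 2.29e-06). The counts for these lists with the replicate-axis score in the model are not given here. Over all genes, the number called in aig2abc against Col-0 went from 5656 to 1375 with that score.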

How the data were processed

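The authors deposited raw counts, whole numbers for each gene and not normalized, from 12 libraries of 3′ RNA-seq. STAR, edgeR and the build TAIR10 are named in the submitters' processing notes, without versions. The sources used here do not give the annotation, the strand setting, the read length or the handling of reads with several matches. Libraries were grouped by the labels' genotype. The third pad4 column has a number that no pad4 title carries, so it was placed by genotype only. Every column was used.

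All 12 libraries entered 1 model with a mean for each of the 4 groups (edgeR 4.0.16, R 4.3.3). TMM factors were used for scaling, filterByExpr removed low genes, and the quasi-likelihood test was robust and two-sided. Adjustment followed Benjamini and Hochberg over the 15082 genes of each comparison, with a threshold of 0.05. CPM are counts scaled to a common library size with TMM factors, given with the SD, and log2 changes with the SE. "Called" means past that threshold. Pairs of replicates had a chi-square per gene of 3.39 to 57.7, above counting noise, so none was merged. Simulated counts with known changes were used to test the scripts.

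Sequences and positions came from RefSeq, assembly TAIR10.1; the count table holds no positions. All 3 members matched by gene code, and proteins were translated from the coding sequences and aligned with BLOSUM62. Members and lists were chosen with earlier results of these data known. The named genes were the members, PAD4, AIG1, the 5 nearest protein-coding genes on each side, called family members, the 5 genes most like each member, and called members of each list with the smallest p.

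Settings varied in turn were the size factors (RLE), the tool (DESeq2 1.42.0 or limma-voom from limma 3.58.1), the filter on low counts, fitting the compared groups alone, a block for the replicate number, the replicate-axis score, thinning to the smallest total and leaving out each library.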

Additional observations from a re-analysis of the deposited data

Results flagged for a closer look

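The interaction asks whether the effect of the aig2abc mutations was the same with and without PAD4. Among the members, their 8 tested relatives and their 3 tested neighbours, 4 genes passed that test, where 14.8% of all genes tested did. For AIG2A the interaction was 1.68 on the log2 scale, from a larger rise without PAD4. For AIG2B it was -2.28, from a fall that passed without PAD4 only. GGCT2;2 had an interaction of -3.71, from a rise that passed with PAD4 only. For the neighbouring gene HB34 it was 4.18, from a fall in aig2abc that rests on 4 counts over 3 libraries. The HB34 call was kept in 4 of 12 omissions of a library, and was lost with no filter on low counts (adjusted p = 0.134) and with limma-voom (adjusted p = 0.137). Without Col-0 replicate 1 the HB34 value was 2.57 (edgeR adjusted p = 0.126). Of these, AIG2A kept its call in each alternative and each omission of a library that was run. The calls of AIG2B, GGCT2;2 and HB34 were lost with the replicate-axis score in the model.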

How the results depend on the processing

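The calls of AIG2A and AIG2C were the same in every alternative and omission run, though thinning to the smallest total moved AIG2C in aig2abc pad4 against pad4 to -4.83. Those of AIG2B changed with the replicate-axis score only, to -1.84 in aig2abc against Col-0 (called), -0.62 in aig2abc pad4 against aig2abc and -0.65 in the interaction (both lost), apart from the interaction in omissions. Leaving out 1 library gave -3.11 to -1.84 for that interaction. The cause was not tested. AIG2C in aig2abc pad4 against aig2abc, not called, ran from -1.66 to 0.65 over the alternatives and from -1.88 to -1.38 over the omissions, and its low counts limit it.

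In the order in which the report lists the 5 comparisons beside the share of genes called, the number of genes called was 5656, 603, 104, 3661 and 2227. With the replicate-axis score it was 1375, 1717, 240, 325 and 86, and with libraries thinned to the smallest total 2855, 195, 25, 2181 and 1266, where fewer counts remain. DESeq2 called 159 genes in pad4 against Col-0. Leaving out 1 library gave 3730 to 6210, 381 to 935, 67 to 132, 1423 to 5503 and 429 to 4588.

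Replicate 1 of Col-0, pad4 and aig2abc pad4 deviated alike from the group means, and each had the highest axis score of its group. Whether the replicate numbers mark a pairing of samples was not tested. Deviations of replicate 1 correlated at 0.515 for Col-0 with pad4 and at 0.55 for pad4 with aig2abc pad4. Those of replicate 2 correlated at 0.133 and -0.115 for the same pairs of groups. Replicate 1 of aig2abc did not share this, at -0.074, 0.0247 and -0.0176 with that of Col-0, pad4 and aig2abc pad4. Deviations of same-numbered libraries of Col-0 and aig2abc pad4 correlated at 0.542, -0.273 and 0.426. There, 2 of 3 Col-0 libraries matched their own number best, against 1 of 3 for Col-0 with aig2abc and 0 of 3 for aig2abc with aig2abc pad4. With the replicate number as a block, 6003, 519, 71, 4349 and 2664 genes were called, and AIG2B in aig2abc pad4 against pad4 was -2.60. No call of a member changed.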
